A study of Mus musculus with 30 samples.

Results

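Astrocyte genes and reactive astrocyte genes were followed in the dorsal hippocampus of mice trained in an object location task or left in the home cage. The group was a list of 39 gene symbols, matched to the rows of a table of 24883 rows, and all 39 were found. Of these, 33 mark astrocytes or their functions, and 6, Gfap, Vim, Serpina3n, Lcn2, Cd44 and Osmr, are reactive genes, which astrocytes raise after injury or inflammation. Members were matched by symbol alone, and no measured value entered the rule, but the list was chosen with earlier results of these data known.

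The study asked how point mutations at 1 tyrosine residue of CREST, a neuronal subunit of a chromatin remodelling complex also called SS18L1, alter the gene expression that follows learning. All samples came from single-housed, wild-type male C57BL/6J mice of 2 to 4 months. Every condition received in vivo-jetPEI, a transfection reagent, infused into both dorsal hippocampi. In the trained conditions this was, by the labels, 3 days before training. VEH mice received the reagent without DNA. Y397F mice received a plasmid for CREST with phenylalanine in place of this tyrosine, and Y397D mice one with aspartate there. The labels call them phospho-null and phospho-mimetic, but phosphorylation of the residue was not detected in the study, so they are treated here as point mutants only. No condition received wild-type CREST, so a mutation and the added CREST cannot be told apart. Both plasmids carried a miniCaMK2 promoter, which drives expression in excitatory neurons, so astrocytes were not the targeted cells. The 5 conditions were VEH-HC (vehicle, home cage), VEH-T10 (vehicle, 10 min of threshold training), Y397F-T10 (10 min), VEH-T3 (vehicle, 3 min of subthreshold training) and Y397D-T3 (3 min), with 6 mice and 6 libraries in each. Tissue of trained mice was taken 1 h after training. Home cage mice had no training and, by the study's methods, were only handled, whereas the training task included habituation to its chamber. In comparisons with VEH-HC, training therefore cannot be told apart from habituation and exposure to the chamber. No condition lacked the reagent, so an effect of the infusion itself cannot be told apart from the state of untouched tissue.

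Astrocytes take up glutamate and potassium around synapses, couple to each other through gap junctions, surround blood vessels with end feet that carry water channels and supply neurons with lactate, lipids and glutamine. After injury they enlarge, raise intermediate filament proteins such as GFAP and vimentin, and secrete proteins such as lipocalin and serpins.

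Values are FPKM, fragments scaled to transcript length and to the mapped fragments of the library, so levels can be compared between genes. A library's summed FPKM ran from 371288 to 437561 and its median over all rows from 1.10 to 1.71, and the correlation between any 2 libraries from 0.975 to 0.996. Read totals are unknown, so the precision of a value is given by the spread among mice. A set of 4 libraries stood apart in the reactive genes, with Lcn2 under 1 FPKM: VEH-T10 mouse 1, Y397F-T10 mouse 1, VEH-T3 mouse 1 and Y397D-T3 mouse 3. VEH-HC held no such library. Their median FPKM over all rows was 1.24, 1.10, 1.10 and 1.17, all in the lower part of the range. For the members, comparisons with VEH-HC and the relations with Gfap that passed the test are given with and without them. Comparisons between trained conditions, and relations that do not involve Gfap, are not given without these 4 libraries. The choice of these 4 libraries was made by Lcn2 itself, after its values were seen.

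The defining markers of astrocytes were present in all 30 libraries. Aqp4, the water channel of end feet, ran from 32.3 to 47.4 (median 40.7) FPKM in home cage mice, from 27.3 to 70.3 (median 50.1) with VEH-T10, from 24.4 to 54.6 (median 44.6) with Y397F-T10, from 25.3 to 59.3 (median 41.7) with VEH-T3 and from 30.1 to 48.4 (median 37.8) with Y397D-T3. Aldh1l1, a folate enzyme used as a general astrocyte marker, ran from 20.4 to 32.3 (median 23.8) FPKM in home cage mice, from 15.1 to 35.2 (median 22) with VEH-T10, from 15.6 to 29.9 (median 24.2) with Y397F-T10, from 14.4 to 25.8 (median 18.2) with VEH-T3 and from 15.6 to 21.8 (median 18.7) with Y397D-T3. The ranges of the conditions overlapped for both genes, and the lowest Aqp4 values of VEH-T10, Y397F-T10 and VEH-T3 belonged to mouse 1 of each, which are 3 of the 4 libraries named above. In a bulk sample, fewer astrocytes and less RNA per astrocyte cannot be told apart.

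The 33 astrocyte genes spanned levels from 8.61 FPKM for Hes5, a Notch target, to 1810 FPKM for Apoe, the main lipid carrier of the brain, as means over 30 mice. After Apoe, the highest means were 692 FPKM for Clu, a secreted chaperone, 510.2 FPKM for Glul, the enzyme that makes glutamine, 297 FPKM for Ndrg2 and 263 FPKM for Aldoc, a glycolytic enzyme. All 39 genes were above 0 FPKM in every library and passed the filter of a mean of at least 1 FPKM, so none was lost to it.

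**Figure D1:**
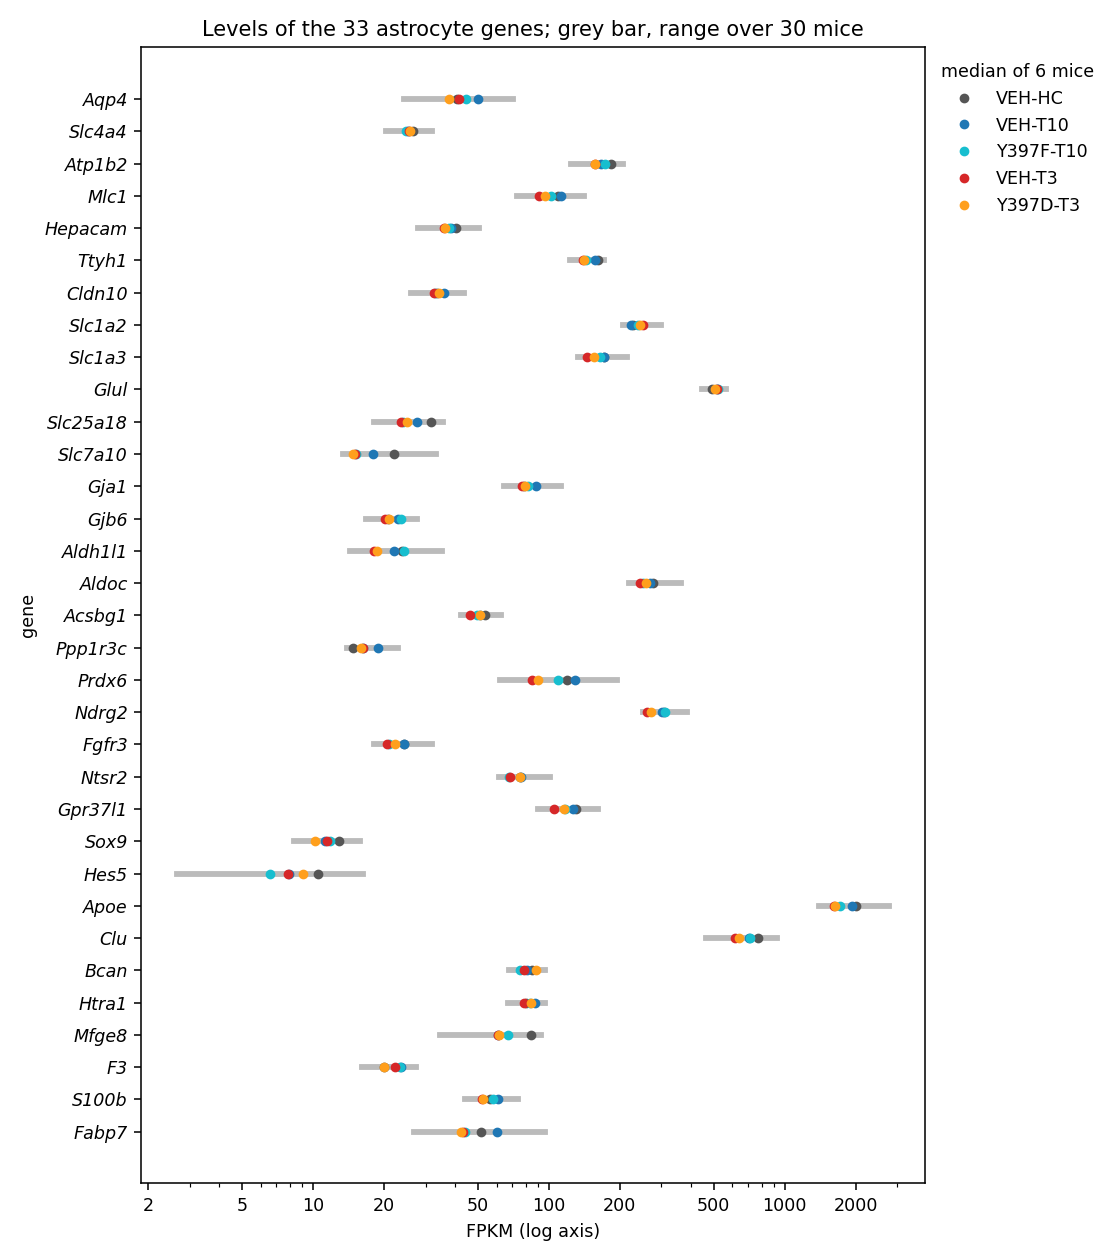
Levels of the 33 astrocyte genes in FPKM on a log axis. Grey bars span the 30 mice and coloured points are the medians of 6 mice in each condition. For most genes the 5 medians lie close together within the grey bar, while Hes5, Prdx6, Fabp7 and Aqp4 have wide bars.

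Among the genes of glutamate and amino acid transport, Slc1a2, Slc1a3 and Glul were the most abundant. Slc1a2, the main glutamate transporter of forebrain astrocytes, ran from 206 to 241 (median 227) FPKM in home cage mice, from 210.1 to 255 (median 222) with VEH-T10, from 206 to 272 (median 238) with Y397F-T10, from 217 to 299.8 (median 251) with VEH-T3 and from 208 to 280.3 (median 243) with Y397D-T3. Slc1a3, the second astrocyte glutamate transporter, ran from 153 to 195 (median 172) FPKM in home cage mice, from 138 to 211 (median 171) with VEH-T10, from 142 to 215 (median 165) with Y397F-T10, from 133 to 178 (median 145) with VEH-T3 and from 143 to 158 (median 155) with Y397D-T3. Glul ran from 484 to 531 (median 490.3) FPKM in home cage mice, from 461 to 558 (median 515) with VEH-T10, from 445 to 556 (median 519.5) with Y397F-T10, from 497 to 552 (median 517) with VEH-T3 and from 468 to 565 (median 506) with Y397D-T3. The Glul values of 30 mice all lay between 445 and 565 FPKM, and its within-condition SD, 0.0985 on the log2(FPKM + 1) scale, was below the median of 0.137 over all 13184 tested rows. The mitochondrial glutamate carrier Slc25a18 averaged 26.4 FPKM (range 18.1 to 35.6) and Slc7a10, which carries small neutral amino acids including serine, 18.6 FPKM (range 13.4 to 33.3).

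The gap junction genes, whose connexins couple astrocytes into networks, were also present throughout. Gja1 ran from 69.5 to 87.2 (median 78.3) FPKM in home cage mice, from 64.4 to 113 (median 88) with VEH-T10, from 64.9 to 104 (median 81.7) with Y397F-T10, from 67.8 to 105 (median 77.3) with VEH-T3 and from 66.5 to 86.8 (median 78.9) with Y397D-T3, and Gjb6 from 17.8 to 22.2 (median 20.7) FPKM in home cage mice, from 16.9 to 27.1 (median 22.8) with VEH-T10, from 18.6 to 27.6 (median 23.6) with Y397F-T10, from 18.4 to 23.8 (median 20.2) with VEH-T3 and from 16.7 to 22.7 (median 21) with Y397D-T3. Within conditions the pair moved together across the 30 libraries (Pearson r = 0.79, Spearman rho = 0.66, permutation p = 1e-05 and 0.00034, adjusted p = 1.6e-05 and 0.000544 over 8 pairs of genes, r = 0.72 without the 2 libraries farthest from the median of Gja1), where 1e-05 is the smallest p that 100000 permutations can give. In contrast, no relation was detected between Slc1a2 and Slc1a3 (r = 0.03, rho = -0.03, permutation p = 0.871 and 0.873, adjusted p = 0.871 and 0.873, r = 0.09 without the 2 farthest libraries). Aqp4 and Aldh1l1 moved together (r = 0.78, rho = 0.77, permutation p = 1e-05 and 2e-05, adjusted p = 1.6e-05 and 4e-05, r = 0.68 without the 2 farthest libraries).

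Among the other membrane proteins, Atp1b2, a subunit of the sodium pump, averaged 167.5 FPKM (range 124 to 207) and Ttyh1, a membrane protein of the tweety family, 148 FPKM (123 to 172). Mlc1 and its partner Hepacam, which form a complex at end feet, averaged 103 FPKM (72.9 to 141) and 37.9 FPKM (27.9 to 50.5). Cldn10, a claudin, and Slc4a4, a bicarbonate transporter, averaged 34.4 FPKM (26.1 to 43.8) and 25.6 FPKM (20.4 to 32.1). Every range is over the 30 mice, and Ttyh1 had the smallest within-condition SD of the 39 genes, 0.0913 on the log2 scale.

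In metabolism, Prdx6, a peroxidase with phospholipase activity, averaged 108 FPKM and ran from 61.8 to 195. Acsbg1, a fatty acid activating enzyme, averaged 50.8 FPKM (42.2 to 62.4), and Ppp1r3c, which targets a phosphatase to glycogen, 16.7 FPKM (13.9 to 22.9). Of the receptors and transcription regulators, Gpr37l1 averaged 120.2 FPKM (89.7 to 161), Ntsr2, a neurotensin receptor, 73.8 FPKM (61.4 to 101), Fgfr3, a growth factor receptor, 23 FPKM (18.1 to 32.0) and Sox9, a transcription factor of the astrocyte lineage, 11.5 FPKM (8.34 to 15.8).

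The secreted and binding proteins Bcan, a matrix proteoglycan, and Htra1, a serine protease, averaged 82 FPKM (67.4 to 96) and 81.9 FPKM (67.2 to 96.5). Mfge8, a secreted bridge between dying cells and phagocytes, averaged 68.2 FPKM (34.7 to 92.2), S100b, a calcium-binding protein, 57 FPKM (44 to 73.7), Fabp7, a fatty acid binding protein of glial progenitors, 49.2 FPKM (26.9 to 96.7) and F3, the tissue factor of coagulation, 21.6 FPKM (16.1 to 27.4). Fabp7, Hes5, Prdx6 and Aqp4 had the largest within-condition SDs of the 33 astrocyte genes, 0.43, 0.45, 0.40 and 0.37 on the log2 scale. They lay at percentiles 93.9, 94.5, 93.0 and 91.7 of all tested rows, where a higher percentile is a wider spread.

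The reactive genes behaved differently from most astrocyte genes, in that their spread among mice of 1 condition was wider on the log2 scale. Gfap, the intermediate filament of astrocytes (chr11:102887336-102900912, minus strand, mm10), measured 535, 684, 346, 582, 679 and 475 FPKM in mice 1 to 6 of VEH-HC. In VEH-T10 the 6 mice had 174, 556, 802, 693, 1194 and 913 FPKM, in Y397F-T10 143, 509, 832, 821, 434 and 949 FPKM. In VEH-T3 they had 141, 688, 509, 386, 926 and 332 FPKM and in Y397D-T3 461, 347, 229.9, 559.8, 752 and 571 FPKM. Mouse 1 was the lowest of VEH-T10, Y397F-T10 and VEH-T3, mouse 3 that of VEH-HC and Y397D-T3, and the values of every trained condition overlapped those of the home cage mice.

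Lcn2, lipocalin, an iron-siderophore binding protein secreted in inflammation (chr2:32384633-32388252, minus strand), had the widest spread. Its values were 52.9, 80.8, 7.07, 59.8, 153 and 76.9 FPKM in VEH-HC and 0.682, 26.1, 47.3, 32.8, 156 and 65 FPKM in VEH-T10, in the order of mice 1 to 6. They were 0.404, 85.7, 73.4, 157, 23.3 and 127 FPKM in Y397F-T10, 0.155, 42.1, 49.9, 3.96, 67.1 and 3.16 FPKM in VEH-T3 and 10.7, 9.35, 0.235, 50.3, 40.4 and 19.9 FPKM in Y397D-T3. Its within-condition SD was 2.16 on the log2 scale, rank 17 of 13184 tested rows, and values under 1 FPKM are imprecise. The lowest mouse of each condition was the one lowest in Gfap, and the highest was the same in VEH-T10 and VEH-T3.

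Vim, the filament protein vimentin (chr2:13573927-13582826, plus strand), ran from 52 to 181 (median 130.0) FPKM in home cage mice, from 19.2 to 305 (median 136) with VEH-T10, from 20 to 199.8 (median 135) with Y397F-T10, from 16.6 to 238 (median 89.9) with VEH-T3 and from 23.9 to 133 (median 70.6) with Y397D-T3. Serpina3n, a secreted serine protease inhibitor (chr12:104406729-104414329, plus strand), ran from 43.9 to 127 (median 104) FPKM in home cage mice, from 28.3 to 241 (median 117) with VEH-T10, from 27.8 to 189.7 (median 110.3) with Y397F-T10, from 21.3 to 197 (median 72.6) with VEH-T3 and from 29.2 to 122 (median 68.9) with Y397D-T3. Serpina3n belongs to a cluster of closely related genes, so reads could have been split among them. Both genes were lowest in the same mouse as Gfap in every condition, and highest in mouse 5 of VEH-HC, VEH-T10, VEH-T3 and Y397D-T3 and in mouse 6 of Y397F-T10.

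The receptors among the reactive genes were at low levels. Cd44, a hyaluronan receptor (chr2:102811141-102901665, minus strand), ran from 1.37 to 4.02 (median 2.74) FPKM in home cage mice, from 0.379 to 7.34 (median 3.25) with VEH-T10, from 0.775 to 4.48 (median 3.33) with Y397F-T10, from 0.834 to 5.66 (median 2.09) with VEH-T3 and from 0.801 to 3.31 (median 1.33) with Y397D-T3. Osmr, the receptor for oncostatin M (chr15:6813577-6874969, minus strand), ran from 1.44 to 2.84 (median 2.51) FPKM in home cage mice, from 1.16 to 4.28 (median 2.62) with VEH-T10, from 1.16 to 3.88 (median 2.43) with Y397F-T10, from 1.02 to 3.52 (median 1.91) with VEH-T3 and from 0.885 to 2.38 (median 1.59) with Y397D-T3. Within-condition SDs on the log2 scale were 1.12 for Vim, 0.92 for Serpina3n, 0.82 for Gfap, 0.67 for Cd44 and 0.41 for Osmr, between percentiles 93.0 and 99.2 of all tested rows. The median over the 33 astrocyte genes was 0.196.

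**Figure D2:**
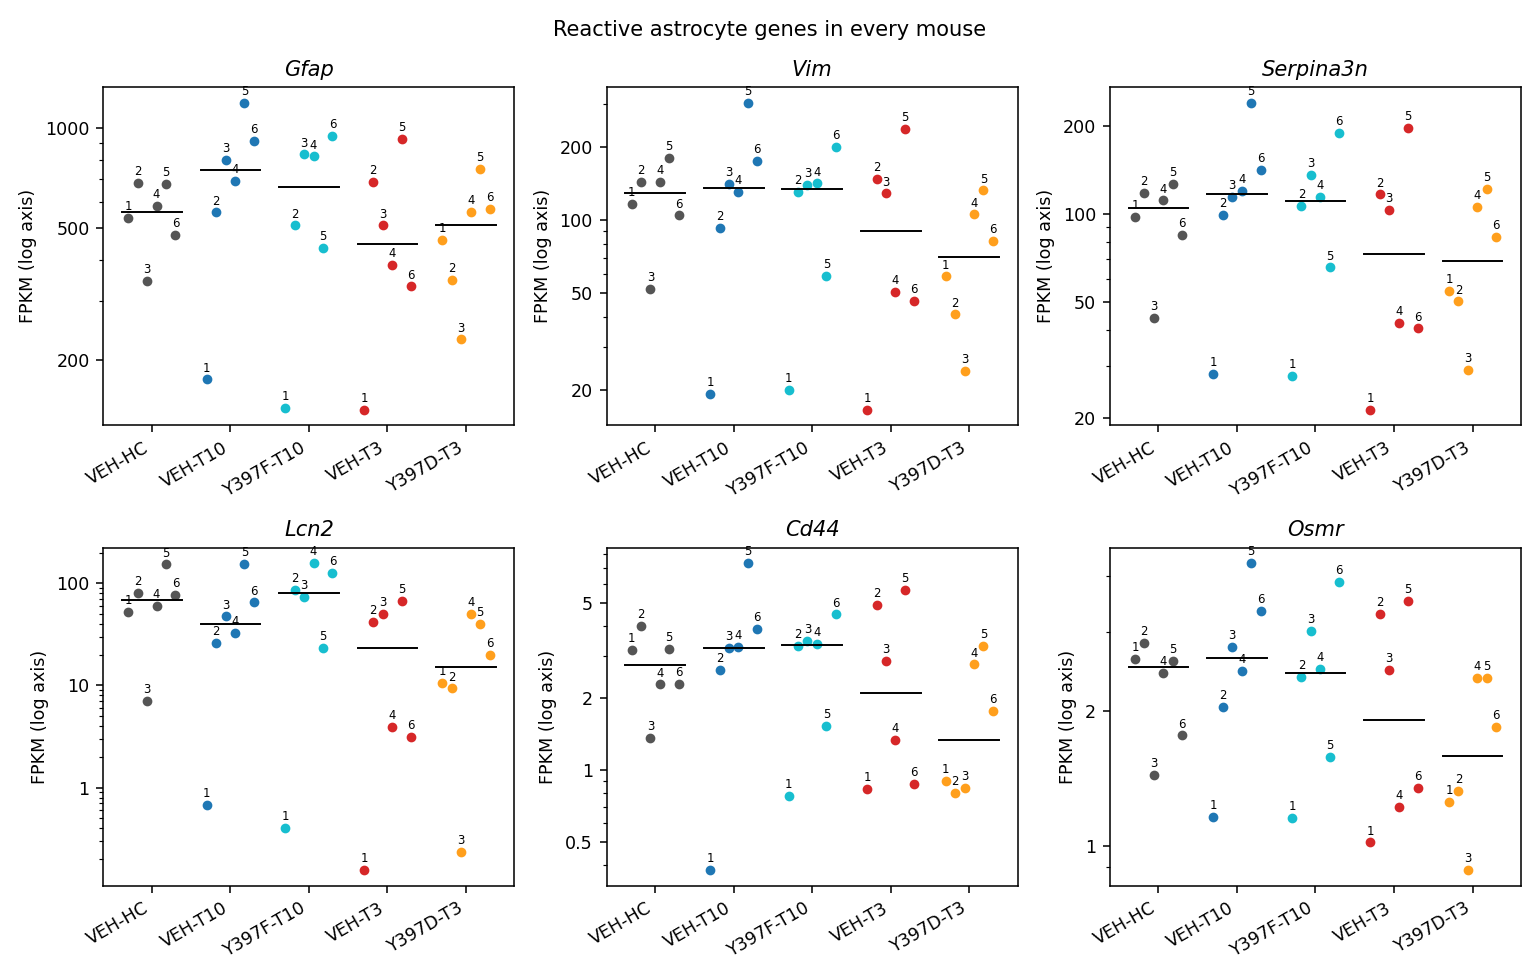
The 6 reactive genes in every mouse, in FPKM on log axes that differ between panels. Points are mice, labelled by number, and lines are the medians of 6 mice. Mouse 1 of VEH-T10, Y397F-T10 and VEH-T3 and mouse 3 of Y397D-T3 lie far below the others in Lcn2, and the same mice are the lowest, or in Cd44 among the lowest, in the other panels.

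The windows around the RefSeq starts of the 4 reactive genes with the highest levels are shown because these genes rose and fell together across mice. Each has 280 bases of GRCm38.p6, from 250 bases before the start to 30 bases from it, read 5′ to 3′ on the gene's strand, from chr11:102897171-102897450 (minus strand), chr2:13574061-13574340 (plus), chr12:104406458-104406737 (plus) and chr2:32387710-32387989 (minus). Capitals mark a match to TTCNNNGAA, the letters of a STAT site, to TGANTCA, those of an AP-1 site, or to TATAAA, searched on both strands.
Gfap: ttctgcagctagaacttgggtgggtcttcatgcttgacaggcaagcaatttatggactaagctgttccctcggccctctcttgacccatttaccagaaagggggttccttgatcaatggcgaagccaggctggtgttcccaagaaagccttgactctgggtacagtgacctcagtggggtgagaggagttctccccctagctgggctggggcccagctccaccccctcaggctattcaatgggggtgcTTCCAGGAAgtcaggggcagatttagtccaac
Vim: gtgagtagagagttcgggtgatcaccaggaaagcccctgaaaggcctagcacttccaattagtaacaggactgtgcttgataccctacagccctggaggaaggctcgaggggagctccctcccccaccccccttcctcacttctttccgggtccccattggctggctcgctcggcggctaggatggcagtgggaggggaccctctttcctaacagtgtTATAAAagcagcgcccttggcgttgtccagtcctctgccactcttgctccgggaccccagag
Serpina3n: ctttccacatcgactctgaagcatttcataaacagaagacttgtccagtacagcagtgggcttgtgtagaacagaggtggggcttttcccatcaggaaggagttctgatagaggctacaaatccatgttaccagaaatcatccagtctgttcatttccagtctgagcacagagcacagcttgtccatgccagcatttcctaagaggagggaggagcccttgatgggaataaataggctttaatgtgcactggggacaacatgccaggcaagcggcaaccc
Lcn2: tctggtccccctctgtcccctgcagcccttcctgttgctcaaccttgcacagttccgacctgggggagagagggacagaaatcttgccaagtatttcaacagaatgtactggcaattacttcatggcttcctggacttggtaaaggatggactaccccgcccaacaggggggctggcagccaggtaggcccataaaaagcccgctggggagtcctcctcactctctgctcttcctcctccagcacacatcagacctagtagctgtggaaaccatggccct

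The Gfap window held the STAT letters across the RefSeq start and the Vim window TATAAA, while the Serpina3n and Lcn2 windows held no match to any of the 3. Windows were found for 34 of the 39 genes. The STAT letters occurred in the windows of Acsbg1, Aldoc, Gfap, Ntsr2 and Slc1a3, and in 7.83% of all 32851 windows. Those of AP-1 occurred for F3, Gja1 and Osmr (7.46% of all windows), and TATAAA for Apoe, Ndrg2, Slc1a3, Slc25a18 and Vim (13.1%). A match describes the letters only.

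The reactive genes moved together across mice. On the log2(FPKM + 1) scale, with the mean of each condition subtracted, Pearson's r with Gfap over 30 libraries was 0.98 for Vim, 0.96 for Serpina3n, 0.95 for Lcn2, 0.91 for Osmr and 0.91 for Cd44. Spearman's rho was 0.94, 0.94, 0.89, 0.92 and 0.92, and every permutation p was 1e-05, the smallest that 100000 permutations can give (adjusted p over 13183 rows 0.000131 for r and 0.000213 for rho). Without the 2 libraries farthest from the median of Gfap, r was 0.97, 0.95, 0.91, 0.90 and 0.88. In the 26 libraries other than the 4 with Lcn2 under 1 FPKM it was 0.94, 0.93, 0.85, 0.92 and 0.91, so the relation did not rest on those mice alone.

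Many homeostatic genes followed the reactive genes. Of the 33 astrocyte genes, 18 (54.5%) had a positive relation with Gfap and 3 (9.09%) a negative one, taking an adjusted p under 0.05 for both r and rho, against 14.6% and 6.91% of all 13183 other rows. The strongest were Aqp4 (r = 0.95, rho = 0.94), Prdx6 (0.92 and 0.91), Hepacam (0.89 and 0.83), Mlc1 (0.87 and 0.85), Gja1 (0.86 and 0.84) and Gpr37l1 (0.83 and 0.82), each with a permutation p of 1e-05 and an adjusted p of 0.000131 for r. These include the water channel, the end foot complex and the main connexin. In the 26 libraries r was 0.90 for Aqp4, 0.90 for Prdx6, 0.79 for Hepacam, 0.77 for Mlc1, 0.82 for Gja1 and 0.79 for Gpr37l1. Aldh1l1, Clu, Atp1b2, F3, Fabp7, Sox9, Slc1a3, Apoe, Gjb6, S100b, Slc4a4 and Ppp1r3c were the other 12, with r from 0.54 to 0.80. Some of these 12 were weaker under alternatives. In the 26 libraries their r ran from 0.33 (S100b) to 0.87 (Aldh1l1). Without the 2 libraries farthest in Gfap it ran from 0.35 (Slc4a4) to 0.71 (Aldh1l1), and with library medians subtracted from 0.35 (Slc4a4) to 0.77 (Clu). No p was computed for these alternatives.

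For 12 astrocyte genes, some of them among the most abundant, the relation did not pass the test in both measures. Slc1a2 had r = -0.34 and rho = -0.30 with Gfap (permutation p = 0.0992 and 0.139, adjusted p = 0.194 and 0.284), and Glul r = 0.30 and rho = 0.12 (p = 0.184 and 0.579, adjusted p = 0.309 and 0.726). Ttyh1 and Ndrg2 had r of 0.21 and -0.13 (permutation p = 0.33 and 0.519, adjusted p = 0.478 and 0.658). The other 8 genes without a call in both measures were Acsbg1, Cldn10, Ntsr2, Slc7a10, Htra1, Slc25a18, Aldoc and Bcan, with r from -0.45 to 0.42. Across the same mice Gfap ran from 141 to 1194 FPKM, Slc1a2 from 206 to 299.8 FPKM and Glul from 445 to 565 FPKM.

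Against the trend, 3 astrocyte genes were lower where Gfap was higher. Mfge8 (chr7:79133768-79149060, minus strand) had r = -0.83 and rho = -0.85, and Hes5 (chr4:154960923-154962371, plus strand) r = -0.78 and rho = -0.73, with a permutation p of 1e-05 for each (adjusted p = 0.000131 and 0.000213). Fgfr3 (chr5:33721674-33737068, plus strand) had r = -0.65 and rho = -0.52 (permutation p = 0.00028 and 0.00477, adjusted p = 0.00203 and 0.0271). Without the 2 libraries farthest from the median of Gfap, r was -0.78, -0.72 and -0.64. In the 26 libraries r was -0.67 for Mfge8, -0.57 for Hes5 and -0.25 for Fgfr3, so the Fgfr3 relation rested largely on the 4 libraries.

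Mfge8 shows this in single mice. Its level ran from 68.1 to 92.2 (median 84.1) FPKM in home cage mice, from 53.6 to 91.7 (median 60.9) with VEH-T10, from 34.7 to 89.5 (median 66.8) with Y397F-T10, from 51.8 to 90.8 (median 60.7) with VEH-T3 and from 50.1 to 88.1 (median 61.6) with Y397D-T3. The highest value of each trained condition came from the 4 libraries with the least Lcn2, and the lowest value of all, 34.7 FPKM, from Y397F-T10 mouse 6, whose Gfap was the highest of its condition.

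**Figure D3:**
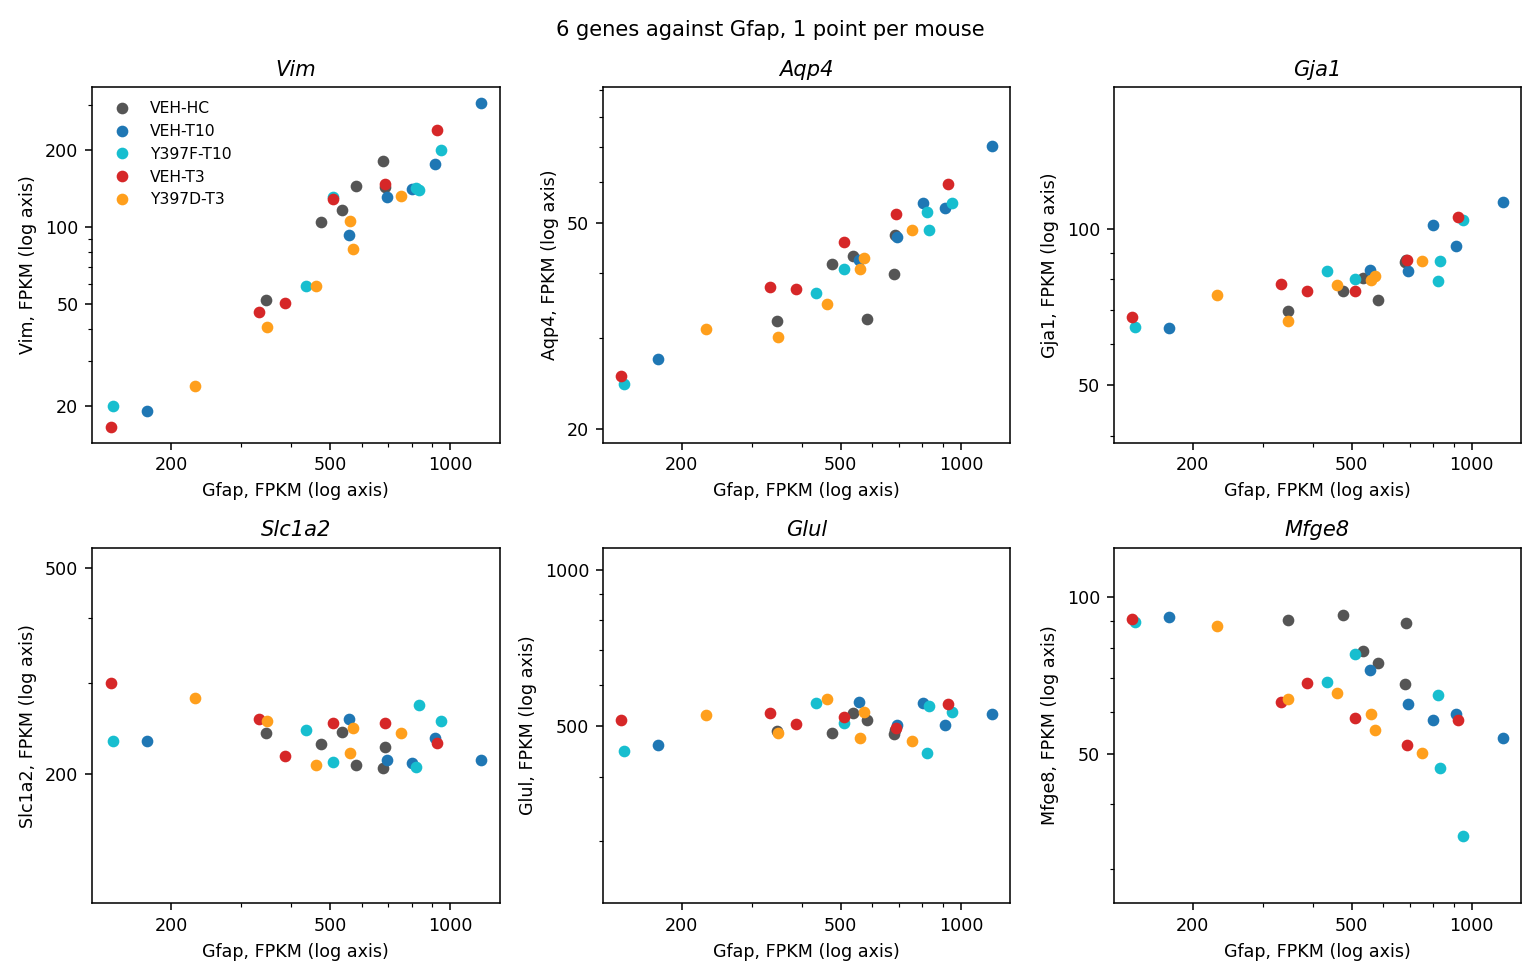
Vim, Aqp4, Gja1, Slc1a2, Glul and Mfge8 against Gfap, in FPKM on log axes, with 1 point per mouse coloured by condition. Vim, Aqp4 and Gja1 rise with Gfap across mice, Slc1a2 and Glul stay within a narrow band, and Mfge8 falls.

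**Figure D4:**
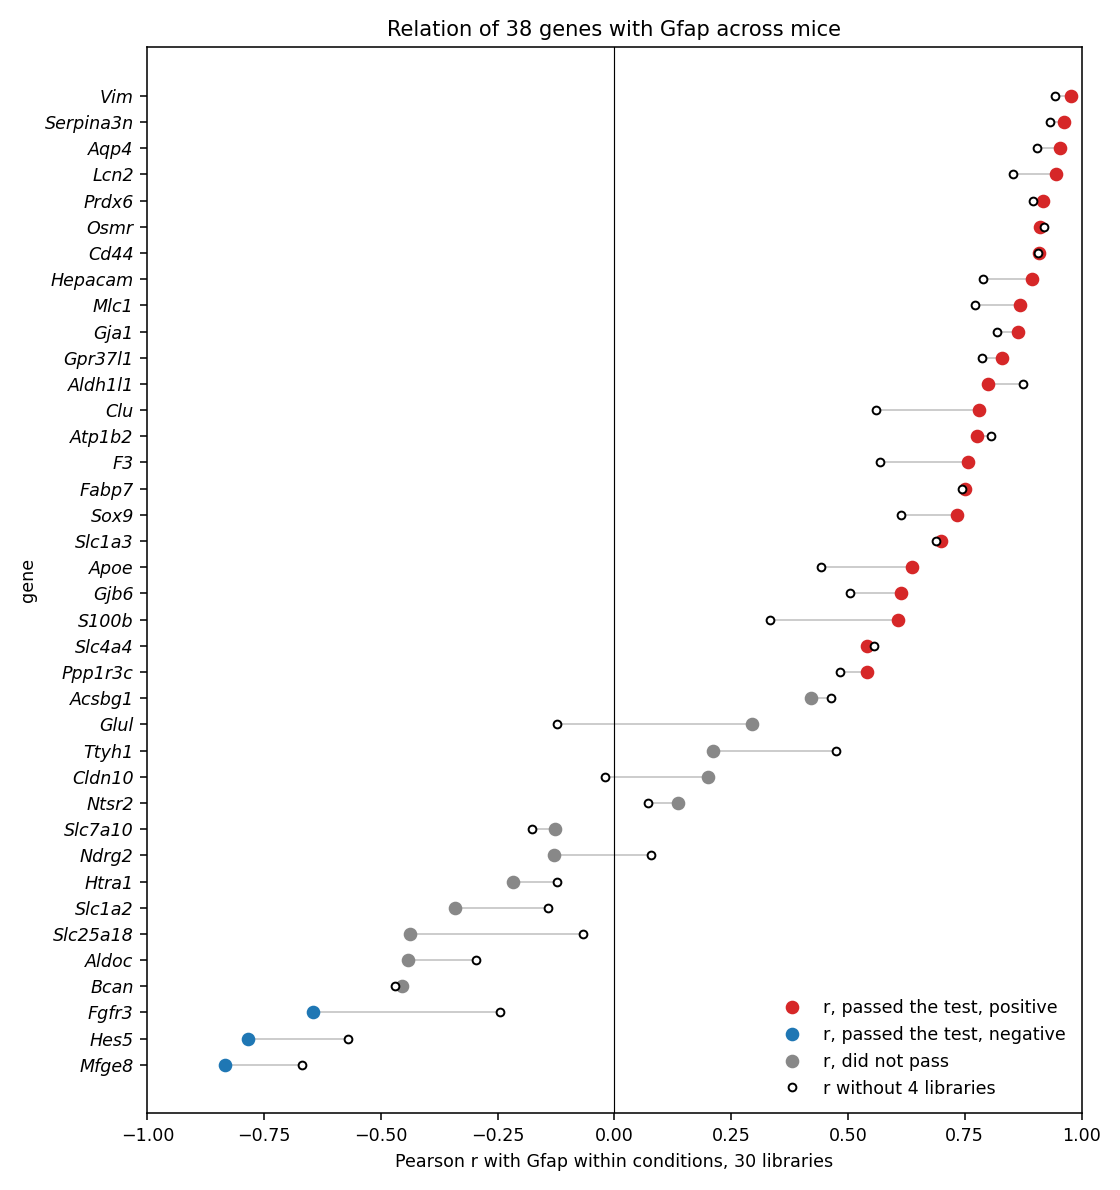
Pearson's r of 38 genes with Gfap over 30 libraries within conditions, filled points coloured by whether r and rho passed the test, and open points the r of the 26 libraries left without the 4 with Lcn2 under 1 FPKM. Vim is at the top with 0.98 and Mfge8 at the bottom with -0.83, and the open point of Fgfr3 moves to -0.25.

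Other cell types moved with the reactive genes. The summed FPKM of 12 microglia markers was lowest and highest in the same mouse as the summed reactive genes in 5 of 5 conditions each, and ran from 292 to 1589.5 FPKM. All 12 had a positive relation with Gfap by the same test, with r from 0.84 to 0.95, and the defining markers were above 0 in all libraries, with Tmem119 from 9.14 to 29.8 FPKM. The sum of 8 endothelial markers was lowest in the same mouse in 5 of 5 conditions and highest in 3 of 5, and 4 of 8 had a positive relation. The sum of 10 neuron markers shared neither its lowest nor its highest mouse in any condition, and 3 of 10 had a negative relation. The sum of 10 oligodendrocyte markers was lowest in the same mouse in 4 of 5 conditions and highest in 2 of 5, and 2 of 10 had a positive relation by that test, while r over all 10 ran from 0.63 to 0.87. By that test 14.6% of all 13183 other rows had a positive relation and 6.91% a negative one. The part of these cell types, and that of the lower median FPKM in the 4 libraries, in the values of the reactive genes was not tested. Microglia also express some of the reactive list, such as Vim and Cd44.

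Choroid plexus tissue varied between libraries too. Ttr, its defining transcript, ran from 5.89 to 12451 FPKM and was at least 890.3 FPKM in every VEH-HC mouse, and 0 of 8 choroid plexus markers passed the test of a relation with Gfap (r from 0.05 to 0.18). Vim had r = 0.22 and rho = 0.30 with Ttr (permutation p = 0.321 and 0.169, adjusted p = 0.367 and 0.193, r = 0.37 without the 2 farthest libraries). Clu, which choroid plexus also expresses, had r = 0.52 and rho = 0.55 (permutation p = 0.0152 and 0.00829, adjusted p = 0.0203 and 0.0111, r = 0.49 without the 2 farthest libraries).

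Training was compared with the home cage by limma on log2(FPKM + 1) of 13184 rows, with the adjusted p of Benjamini and Hochberg over all of them and a threshold of 0.05. The median difference over all rows was between -0.04 and -0.03 (log2) in all 4 comparisons with VEH-HC, which share the 6 home cage libraries. Numbers of rows called moved with the scaling: subtracting the library medians turned 42 higher and 66 lower in VEH-T10 to 33 and 13, 294 and 387 in VEH-T3 to 239 and 102, 62 and 87 in Y397F-T10 to 30 and 12, and 515 and 417 in Y397D-T3 to 692 and 248.

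After threshold training, VEH-T10 against VEH-HC, 0 of 39 genes were called higher and 0 lower, where 0.319% of all rows were called higher and 0.501% lower. At an unadjusted limma p under 0.05, 2 of 39 were higher and 0 lower, against 4.57% and 10.3% of all rows. The median difference was -0.01 (log2) over the 39 genes and -0.03 over all rows, with 19 genes above 0 and 20 below. Of 5 thalamus markers tested, 5 were below 0 and 1 was called lower. Ppp1r3c, the glycogen gene (chr19:36731731-36736653, minus strand), had the smallest p, with a log2 difference of 0.31 (SE 0.08, limma adjusted p = 0.057) and 6 of 6 mice above the home cage median. Its values were 14.7, 16.9, 14.3, 14.6, 14.9 and 16.1 FPKM in mice 1 to 6 of VEH-HC and 15.2, 18.7, 22, 17.4, 22.9 and 19.2 FPKM in VEH-T10. The only VEH-T10 mouse below the highest home cage value was mouse 1. Htra1 had 0.14 (limma adjusted p = 0.308) and Mfge8 -0.32 (limma adjusted p = 0.399). Without the 4 libraries 1 gene, Ppp1r3c, was called higher (log2 difference 0.37, limma adjusted p = 0.00498), against 1.61% of all rows, but that omission removed the VEH-T10 mouse with the least Ppp1r3c.

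After subthreshold training, in VEH-T3 against VEH-HC, 2 of 39 genes (Ttyh1 and Ndrg2) fell and 0 rose, where 2.94% of all rows were called lower and 2.23% higher. Without adjustment, at a limma p under 0.05, 9 of 39 were lower and 0 higher, against 13.8% and 7.79% of all rows. The median difference was -0.18 over the 39 genes and -0.04 over all rows, with 32 of 39 below 0. Markers of some other cell types lay on the same side, with 12 of 12 microglia (median -0.11), 6 of 6 ependymal (-0.17) and 8 of 8 choroid plexus markers (-0.73) below 0 and none of these called. Others did not. Above 0 were 7 of 10 oligodendrocyte markers (median 0.09) and 6 of 6 red blood cell rows (0.38, 1 called higher). Endothelial markers were split, 4 above and 4 below, with 1 called higher, and 1 mural cell marker was called higher. The part of any of these cells in the astrocyte values was not tested.

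Ttyh1 (chr7:4119408-4136708, plus strand) had 158, 169, 151, 172, 164 and 155 FPKM in mice 1 to 6 of VEH-HC and 143, 135, 126, 123, 155 and 144 FPKM in those of VEH-T3. The groups overlapped only through VEH-T3 mouse 5, and 6 of 6 mice were below the home cage median. Its log2 difference was -0.23 (SE 0.05, limma adjusted p = 0.0171), a mean of 138 against 161 FPKM. Ndrg2, a stress-responsive protein enriched in astrocytes (chr14:51905271-51914158, minus strand), had 307, 308, 293, 384, 355 and 302 FPKM in VEH-HC and 309, 249.7, 258, 261, 282 and 262 FPKM in VEH-T3. Of the VEH-T3 mice, 5 of 6 were below the home cage median, and mouse 1 was not. Its log2 difference was -0.26 (SE 0.08, limma adjusted p = 0.0427). Both calls ended when library medians were subtracted, with limma adjusted p = 0.0548 for Ttyh1 and 0.125 for Ndrg2, and with only the 12 libraries compared (0.0882 and 0.111), a fit that called 0 rows of the table. Leaving out VEH-HC replicate 4 or VEH-T3 replicate 3 also ended the Ttyh1 call, and 9 of 30 single omissions ended that of Ndrg2 (limma adjusted p from 0.0148 to 0.124).

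Without the 4 libraries, 6 genes were called lower in VEH-T3, against 8.01% of all rows: Ttyh1, Ndrg2, Slc25a18, Acsbg1, Fgfr3 and Mfge8. In all 30 libraries Slc25a18 (chr6:120773578-120794336, plus strand) had a log2 difference of -0.36 (SE 0.11, limma adjusted p = 0.0578), a mean of 24 against 31 FPKM, with 6 of 6 mice below the home cage median. Acsbg1 had -0.21 (limma adjusted p = 0.0598). Aldh1l1 had -0.37 (limma adjusted p = 0.184) and Slc1a3 -0.20 (limma adjusted p = 0.226), whereas Slc1a2 had 0.15 (limma adjusted p = 0.262), Glul 0.06 (limma adjusted p = 0.627), Aqp4 0.08 (limma adjusted p = 0.87), Gja1 0.05 (limma adjusted p = 0.87) and Gjb6 0.03 (limma adjusted p = 0.893).

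Every reactive gene except Osmr had wider intervals than any astrocyte gene. Lcn2 differed by -2.14 (95% interval -4.56 to 0.28, limma adjusted p = 0.302) in VEH-T3 and by -1.99 (-4.41 to 0.43, limma adjusted p = 0.3004) in Y397D-T3 from VEH-HC, and 6 of 6 mice of each were below the home cage median. In VEH-T10 and Y397F-T10 the Lcn2 differences were -0.85 (-3.27 to 1.58) and -0.42 (-2.85 to 2.00). Gfap differed by 0.22 (-0.71 to 1.14), -0.03 (-0.96 to 0.89), -0.33 (-1.26 to 0.59) and -0.24 (-1.16 to 0.69) after threshold training with vehicle or Y397F and after subthreshold training with vehicle or Y397D. Every one of the 6 reactive genes missed the threshold in each of the 7 comparisons. The intervals of Gfap, Vim, Serpina3n, Lcn2 and Cd44 reach beyond 1 log2 unit in at least 1 of the 4 comparisons with VEH-HC, so the spread between mice limits what could be seen. Without the 4 libraries, 0 of the 6 were called in the 4 comparisons with VEH-HC.

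In Y397F-T10 against VEH-HC, 0 of 39 genes were called higher and 0 lower, where 0.47% of all rows were called higher and 0.66% lower. By the unadjusted limma p under 0.05, 5 of 39 were lower and 0 higher, against 11.4% and 5.5% of all rows, so the share of lower genes was near the background. The median difference was -0.13 over the 39 genes and -0.04 over all rows, beside 6 of 6 ependymal, 8 of 8 choroid plexus and 5 of 12 microglia markers below 0. Of 5 thalamus markers tested, 5 were below 0 and 1 was called lower. Above 0 were 5 of 6 red blood cell rows, and neuron markers were split, 5 above and 5 below. Slc25a18 had the smallest p, with a log2 difference of -0.41 (SE 0.11, limma adjusted p = 0.0707), a mean of 23.3 against 31.0 FPKM and 6 of 6 mice below the home cage median. Ttyh1 had -0.17 (limma adjusted p = 0.106, 6 of 6 mice below) and Mfge8 -0.42 (limma adjusted p = 0.216). Without the 4 libraries 4 genes, Slc25a18, Fgfr3, Hes5 and Mfge8, were called lower, against 4.95% of all rows. The omission took mice from the trained conditions alone, and these were the highest of their condition in Hes5 and Mfge8 in 4 of 4 libraries and in Fgfr3 and Slc25a18 in 3 of 4, so lower calls of these genes are bound up with the choice of libraries and carry no support of their own, here or in VEH-T3 and Y397D-T3.

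In Y397D-T3 against VEH-HC, Ttyh1 alone fell, 1 of 39, and 0 rose, where 3.16% of all rows were called lower and 3.91% higher. With no adjustment of the limma p (under 0.05), 9 of 39 were lower and 0 higher, against 14.6% and 10.3% of all rows. The median difference was -0.19 over the 39 genes and -0.03 over all rows. Below 0 were 31 of 39 members, 11 of 12 microglia, 6 of 6 ependymal and 8 of 8 choroid plexus markers. Also below 0 were 5 of 5 thalamus markers, with 2 called lower, and 6 of 6 meningeal fibroblast markers, with 1 called lower. Of 8 endothelial markers 6 were below 0, and of 5 oligodendrocyte precursor markers 4, with 1 called lower in each list. A further 8 of 10 oligodendrocyte markers were below 0, with 0 called. The part of these cells and tissues in the astrocyte values was not tested. Above 0 were 7 of 10 neuron markers, with 3 called higher, and 6 of 6 red blood cell rows, with 1 called higher. Ttyh1 had 146, 129, 153, 142, 138 and 142 FPKM in mice 1 to 6 of Y397D-T3, all below the home cage median of 161 FPKM, with a log2 difference of -0.19 (SE 0.05, limma adjusted p = 0.0316). The call ended when library medians were subtracted (limma adjusted p = 0.122) and without any one of 6 single libraries. Sox9 had -0.35 (limma adjusted p = 0.0893) and Ndrg2 -0.21 (limma adjusted p = 0.0926). Clu (chr14:65968483-65981547, plus strand) had values of 745, 789, 675, 824, 923 and 755 FPKM in VEH-HC and 650.0, 515, 538, 645, 642 and 641 FPKM in Y397D-T3. Its groups did not overlap, the one case among the 39 genes in this comparison, where 3.02% of all rows were lower without overlap. The log2 difference of Clu, -0.38, missed the threshold in the fit of all 30 libraries (limma adjusted p = 0.0945). It passed with only the 12 libraries compared (limma adjusted p = 0.0127). Choroid plexus also expresses Clu, and the median of Ttr was 114 FPKM in Y397D-T3, with 2763 in mouse 4, against 3040.5 FPKM in VEH-HC. Of 8 choroid plexus markers 0 were called lower, with a smallest limma adjusted p of 0.098. With Ttr as a covariate, a setting added after the data were seen, the limma adjusted p of Clu was 0.458. Ttr differed between these conditions, so this fit cannot separate Ttr from condition. The part of choroid plexus in the Clu values was not tested. Without the 4 libraries 3 genes, Ttyh1, Slc25a18 and Mfge8, were called lower, against 5.58% of all rows. With only the 12 libraries compared, 7 of 39 were called lower, against 8.8% of all rows. They were Ttyh1, Clu, Sox9, Aldh1l1, Mlc1, Slc7a10 and Mfge8. Sox9 had a limma adjusted p of 0.024 there and of 0.0418 with a replicate block.

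**Figure D5:**
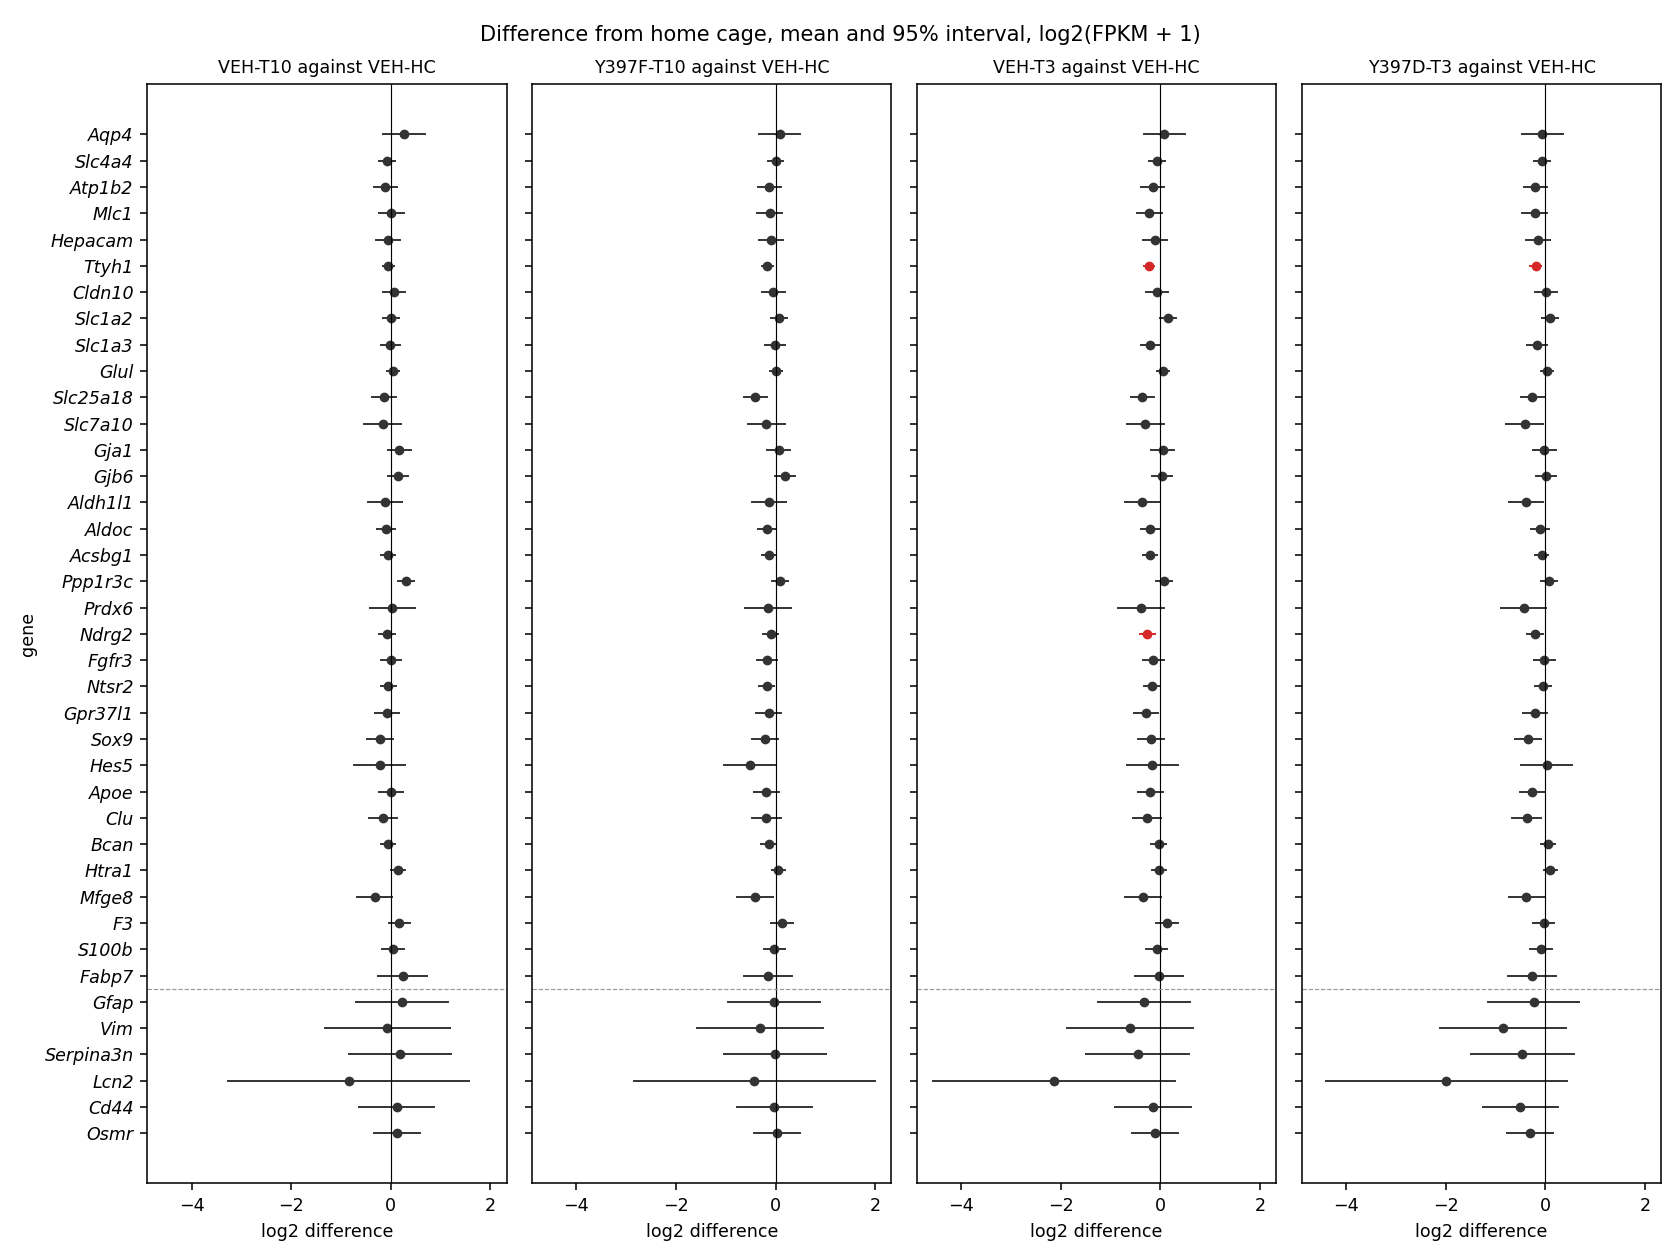
Log2 differences of the 39 genes from VEH-HC in the 4 trained conditions, points with 95% intervals from limma on log2(FPKM + 1), red where the adjusted p was under 0.05. The dashed line parts the 33 astrocyte genes from the 6 reactive genes, of which all but Osmr have wider intervals than any astrocyte gene, and red marks Ttyh1 and Ndrg2 in VEH-T3 and Ttyh1 in Y397D-T3.

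The 2 CREST mutants were each compared with the vehicle mice given the same training. In Y397F-T10 against VEH-T10, 0 genes were called higher and 0 lower, where 0% of all rows were called in each direction. At an unadjusted limma p under 0.05, 3 were lower and 0 higher: Ppp1r3c with -0.21, Slc25a18 with -0.27 and Ttyh1 with -0.12, each with a limma adjusted p of 1.00. In Y397D-T3 against VEH-T3, 0 genes were called higher and 0 lower, where 0% of all rows were higher and 0.00758% lower. Without adjustment, at a limma p under 0.05, 2 were higher and 0 lower, Htra1 with 0.14 (limma adjusted p = 0.633) and Acsbg1 with 0.14 (limma adjusted p = 0.633), and Ntsr2 had 0.13 (limma adjusted p = 0.676). Over all rows, an unadjusted p under 0.05 was met by 256 higher (1.94%) and 242 lower (1.84%) in the first comparison and by 679 higher (5.15%) and 358 lower (2.72%) in the second. The median difference was -0.09 over the 39 genes in the first comparison, where 34 of 39 members and 12 of 12 microglia markers were below 0, and -0.01 in the second. In the first comparison 8 of 8 choroid plexus markers were above 0. The 95% interval of Gfap was -1.18 to 0.67 and -0.83 to 1.02, that of Aqp4 -0.60 to 0.23 and -0.56 to 0.27, and that of Slc1a2 -0.10 to 0.22 and -0.21 to 0.11.

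Threshold was also compared with subthreshold training in vehicle mice. In VEH-T10 against VEH-T3, 0 genes were called higher and 0 lower, where 0% of all rows were higher and 0.0455% lower. By the unadjusted limma p under 0.05, 5 of 39 were higher and 0 lower, against 3.65% and 4.51% of all rows. Of the 39 differences 33 were above 0, with a median of 0.16 against 0.0027 over all rows, and 12 of 12 microglia markers were above 0 as well, with a median of 0.34. Below 0 were 10 of 10 oligodendrocyte and 8 of 8 choroid plexus markers. Ttyh1 had a log2 difference of 0.18 (limma adjusted p = 0.386), Ppp1r3c 0.23 (limma adjusted p = 0.469) and Htra1 0.18 (limma adjusted p = 0.534). The ratio between the highest and lowest condition means was 1.17 for Ttyh1, 1.04 for Glul, 1.11 for Slc1a2, 1.48 for Gfap, 1.95 for Vim and 3.57 for Lcn2.

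A wider set of astrocyte genes also gave few calls. Of 46 other astrocyte genes, 0 were called in VEH-T10 and in Y397F-T10 against VEH-HC. In VEH-T3 1 rose, Nfib, a transcription factor of glial differentiation, with a log2 difference of 0.34 (SE 0.08, limma adjusted p = 0.0221), 17.9 against 13.9 FPKM and 6 of 6 mice above the home cage median, and 0 fell. That is 1 of 46, where 2.23% of all rows were called higher. In Y397D-T3 1 fell, Pla2g7, a secreted phospholipase, with -0.32 (SE 0.08, limma adjusted p = 0.0223), 68.9 against 86.8 FPKM and groups that did not overlap, and 0 rose, where 3.16% of all rows were called lower. In that comparison 2 of the 46 genes were lower without overlap, against 3.02% of all rows. Both counts of called genes were near the background or below it, and say nothing particular to astrocyte genes. Of 37 other reactive genes 33 were tested, and 0 were called in any of the 4 comparisons. With no adjustment of the limma p (under 0.05) these lists had 3 higher and 2 lower, 1 and 14, 1 and 5, and 2 and 10 astrocyte genes, with VEH-T10 first, then VEH-T3, then Y397F-T10 and last Y397D-T3, and 0 and 1, 0 and 0, 0 and 0, and 0 and 3 reactive genes. The shares of all rows at that threshold were 4.57% higher and 10.3% lower, 7.79% and 13.8%, 5.5% and 11.4%, and 10.3% and 14.6% in the same order. Across mice, 22 of 46 other astrocyte genes and 29 of 33 other reactive genes had a positive relation with Gfap, and 2 and 0 a negative one. The shares of all 13183 other rows were 14.6% and 6.91%.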

How the data were processed

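RNA-seq was made from dorsal hippocampus of 30 mice, 6 in each of 5 conditions, with 1 library per mouse. The deposited values are FPKM per gene symbol. Per the labels, the authors used TopHat2 2.1.1 and Cufflinks 2.2.1 with mm10, and sequenced paired ends on NovaSeq and HiSeq instruments, with no instrument named per library. The RNA had an integrity number of at least 7. Read totals are not given, so no counting interval could be set, and the number of mice limits the precision. Library preparation strand is not given in the sources used here. FPKM is relative to each library's total, so a change in a few abundant transcripts moves the others.

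From these values log2(FPKM + 1) was computed, and rows with a mean of at least 1 FPKM were kept (13184 of 24883). A fold on this scale understates the change of low genes. The 7 comparisons were fitted in limma 3.58.1 (R 4.3.3) over all 30 libraries with an intensity trend, with p-values adjusted by Benjamini and Hochberg over all rows kept and a threshold of 0.05. The Cyber-T test of the study's methods was not used here. All p-values are two-sided. Relations between genes used the values with condition means subtracted and 100000 permutations within conditions (Python 3.11.15, scipy 1.17.1), adjusted over 13183 rows or over 8 pairs. Both steps were tested on simulated data. Altogether 280 symbols stood on several rows, and summing them was an alternative. Replicate numbers were not treated as pairs. Gene coordinates are those of GENCODE in GRCm38, the build named mm10, and promoter windows those of RefSeq in GRCm38.p6, in which 5 members had none. Labels name the dorsal hippocampus and the study's methods its CA1 field, and the labels and the methods differ on the day of infusion.

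The members, the other gene lists and the comparisons were chosen with earlier results of these data known. By the naming rule every member was named with its level, 13 were given in every condition, and in each comparison the called members, or otherwise the 3 with the smallest p, were named. Of the 2 wider lists, the called genes were named. Members described in addition, such as Mfge8 across mice, were chosen after their values were seen. Alternatives were another pseudocount, no filter, library medians subtracted, only the 12 libraries compared, a replicate block, summed rows, unadjusted p and each library left out. Ttr as a covariate and the omission of the 4 libraries under 1 FPKM of Lcn2 were added after the data were seen.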

Additional observations from a re-analysis of the deposited data

Results flagged for a closer look

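Within a condition of 6 mice, a value was set apart when its gap to the nearest mouse, as a share of the condition's range, exceeded Dixon's critical value. Of 195 groups, 17 met this, and chance gives about 1 in 20.

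Fgfr3 and Hes5, which fell as Gfap rose, gave 4 of these values, all in libraries with the least Lcn2 of their condition. Fgfr3 was 29.4 FPKM in VEH-T3 mouse 1, where the next mouse had 21.1, and 32.0 FPKM in Y397D-T3 mouse 3, where the next had 23.4. Hes5 was 13.8 FPKM in VEH-T3 mouse 1 and 16.3 FPKM in Y397D-T3 mouse 3, against 8.20 and 10.4 in the next mice. Slc25a18 was 33.5 FPKM in Y397D-T3 mouse 3 and Slc7a10 25.3 FPKM in VEH-T10 mouse 1. S100b was the lowest of its condition in VEH-T10 mouse 1, at 44.0 FPKM.

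VEH-HC mouse 4 stood high in Aldoc (364 FPKM), Ntsr2 (101.0 FPKM) and S100b (70.1 FPKM). VEH-T3 mouse 5, the mouse of that condition with the most Gfap, stood high in Mlc1 (134.9 FPKM), Gpr37l1 (146 FPKM) and S100b (73.7 FPKM). The other values set apart were S100b at 69.3 FPKM in Y397D-T3 mouse 1, Slc7a10 at 29.6 FPKM in VEH-T3 mouse 4, Gpr37l1 at 100.5 FPKM, the lowest, in Y397D-T3 mouse 2 and Slc4a4 at 25.1 FPKM, the lowest, in VEH-HC mouse 6.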

How the results depend on the processing

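No result changed direction with its call under the alternatives run, but the number of members called did move. For VEH-T10 against VEH-HC, 1 member was higher with library medians subtracted, 1 without the 4 libraries low in Lcn2 and 2 at an unadjusted p. Of all 13184 rows, 33, 212 and 602 were higher in these settings. For VEH-T3, the 2 members called lower became 1 with no filter, 0 with medians subtracted, 0 with only the 12 libraries, 1 with a replicate block, 4 with Ttr as a covariate, 6 without the 4 libraries and 9 at an unadjusted p. Over all rows, 387 lower became 291 (of 18287), 102, 0, 469, 604, 1056 and 1818 in the same order. For Y397F-T10, 0 lower became 2 with Ttr, 4 without the 4 libraries and 5 at an unadjusted p. Over all rows, 87 lower became 180, 652 and 1507. For Y397D-T3, 1 lower became 0 with medians subtracted, 7 with only the 12 libraries, 2 with the block, 2 with Ttr, 3 without the 4 libraries and 9 at an unadjusted p. Over all rows, 417 lower became 248, 1160, 510, 216, 736 and 1929 in the same order. At an unadjusted p, 3 members were lower in Y397F-T10 against VEH-T10, 2 higher in Y397D-T3 against VEH-T3 and 5 higher in VEH-T10 against VEH-T3. All rows gave 242, 679 and 481. Other astrocyte genes with only the 12 libraries were 1 lower in VEH-T10, 0 higher in VEH-T3, 1 lower in Y397F-T10, and 1 higher and 6 lower in Y397D-T3, where 1 was higher with medians subtracted. Other reactive genes had 1 lower in Y397D-T3 with medians subtracted and 1 with only the 12 libraries. Over all rows, Y397D-T3 had 692 higher and 248 lower with medians subtracted, and counts for the 12 libraries follow below. Leaving out each library in turn gave 0 to 1 members higher in VEH-T10, and 0 to 5 lower in VEH-T3, 0 to 1 in Y397F-T10 and 0 to 2 in Y397D-T3. Over all rows these omissions gave 8 to 70, 78 to 817, 4 to 283 and 183 to 542. The member counts are not read as results about astrocyte genes. The causes were not tested.

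Over all rows, only the 12 libraries compared gave 91 higher and 230 lower in VEH-T10, 0 and 0 in VEH-T3, 6 and 37 in Y397F-T10, and 685 and 1160 in Y397D-T3. The replicate block gave 48 and 114, 273 and 469, 66 and 110, and 529 and 510 in the same order. Same-numbered libraries deviated together with a median r of 0.04 over 60 pairs (-0.50 to 0.84), others with 0.01 over 300 pairs, and 8 of 30 libraries correlated best with their own number. What the numbers stand for is not given, and they were not taken to pair mice. The summed reactive genes were highest in mouse 5 of VEH-HC, VEH-T10, VEH-T3 and Y397D-T3 and lowest in mouse 1 of VEH-T10, Y397F-T10 and VEH-T3. Whether same-numbered libraries share a source of variation was not tested. Read depth was unknown, and low values such as Lcn2 under 1 FPKM are imprecise.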

Other observations

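Outside the 39 genes, those most like Gfap across mice included several that microglia express. Chosen after their values were seen, Olfml3 had r = 0.97 with Gfap, C4b, a complement component, 0.96, Fcgr2b, an antibody receptor, 0.96 and S100a6, a calcium-binding protein, 0.95, over 30 libraries within conditions. At the other end, Ssbp2 had r = -0.91, Gda -0.90 and Copg1 -0.89. In the 26 libraries left without the 4 low in Lcn2, r was 0.91 for Olfml3, 0.87 for C4b and -0.79 for Ssbp2.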
